A study of Mus musculus and Homo sapiens with 9 samples.

Results

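TGF-beta family signalling was described here through 33 genes, chosen by name for their roles as ligands, latency proteins, receptors, SMADs, ubiquitin ligases, corepressors, feedback inhibitors and targets, and all 33 had a row both in a table of 64252 human genes and in a table of 43432 mouse genes. TGF-beta, activins and bone morphogenetic proteins (BMPs) bind a pair of type II receptors, which phosphorylate type I receptors. The type I receptors phosphorylate receptor SMADs, SMAD2 and SMAD3 for TGF-beta and activin and SMAD1 and SMAD5 for BMP, and these enter the nucleus with SMAD4. Inhibitory SMADs, ubiquitin ligases of the SMURF family and the corepressors SKI and SKIL hold the pathway back, and several of them are themselves transcribed in response to it. In T cells, TGF-beta restrains proliferation and effector function and takes part in regulatory and tissue-resident T cell differentiation.

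The RNA-seq data came from J.gamma1 cells, a human T-cell acute lymphoblastic leukemia (T-ALL) line derived from Jurkat, and from CD3+ T cells isolated from mouse spleen. The J.gamma1 groups were shNC (n = 2), which carried a control short hairpin RNA, and shIRF2BP2 (n = 2), in which IRF2BP2, a transcriptional cofactor, was targeted. Both J.gamma1 groups are 1 cell line, the hairpin in the sequenced cells is not named in the sources used here, and nothing in the labels says that the replicates were separate cultures, so that p-values measure only the spread between these libraries. The mouse groups were Irf2bp2 KO (n = 2), which the study describes as Vav-iCre+/-;Irf2bp2fl/fl, and Wild type control (n = 3), described as Vav-iCre-/-;Irf2bp2fl/fl. Both mouse groups therefore carry the floxed Irf2bp2 alleles. Vav-iCre is active in all blood cells, so the T cells of the knockout developed among other blood cells that lacked Irf2bp2 too. The age of the sequenced mice is not given in the labels.

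The libraries held 26648204 to 31120236 counts for J.gamma1 and 16668577 to 37177523 for mouse, the lowest being Wild type control replicate 3. Levels are given as CPM, counts scaled to the TMM-adjusted library size, and levels of different genes are compared per exon length, as RPKM. A gene was called higher or lower at an edgeR adjusted p under 0.05 with a log2 fold change no smaller than 0.5 in size. IRF2BP2 had 204 and 199 CPM in shNC and 79.0 and 93.8 CPM in shIRF2BP2 (log2 fold change -1.22, SE 0.131, edgeR adjusted p = 0.0023). Irf2bp2 had 112, 128 and 121 CPM in the mouse controls and 0 and 0 CPM in the knockout, at least 1434-fold lower with 3 counts per library as the limit. T cell markers were present in all libraries, with summed levels of 1590 to 1860 CPM in J.gamma1 and 3390 to 5200 CPM in mouse.

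In J.gamma1 cells, 31 of the 33 genes passed the filter on low counts, 10 were called higher in shIRF2BP2 than in shNC and 1, TGFBR1, was called lower. The genes that rose were TGFB1, the receptors TGFBR2, ACVR2B, BMPR1A and BMPR2, SMAD3 and SMAD7, the ubiquitin ligase SMURF2 and the corepressors SKI and SKIL. The members called higher were 32.3% of those tested, beside 5.46% of all 15819 genes tested, and the member called lower was 3.23%, beside 5.01%. In either direction, 10.5% of all genes were called. The median log2 fold change was 0.38 over the members and 0.01 over all genes. Of the members, 21 had a log2 fold change above 0 and 9 one below 0, beside 50.6% of all genes above 0, and SMAD4 was at 0.00. For 23 members the 2 groups did not overlap, beside 58.3% of all genes, and for 19 the unadjusted p was under 0.05, beside 27.6%. TGFB2, with 0 to 4 counts per library, and TGFBI, with 0 to 2, were not tested.

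The called genes depended on the filter, the scaling, the rows in the fit and single libraries. With upper-quartile scaling, TGFB1, BMPR1A and SMAD3 were not called, and with unannotated rows kept, BMPR1A and SMAD3 were not. In all, 3 settings moved the count of members called higher by more than 1.5 times. With a log2 fold threshold of 1, 3 were called higher (SKIL, SMAD7 and SMURF2) and 0 lower. With every gene of at least 1 count in any library in the fit, 3 were called higher (SKI, SMURF2 and TGFBR2), and without shIRF2BP2 replicate 1, with the lone library assumed to vary like the other group, 3 were called higher (SMAD7, SMURF2 and TGFBR2). TGFBR1 remained called lower in the last 2 settings, and its edgeR adjusted p was 0.052 without shIRF2BP2 replicate 2. Without shNC replicate 1, TGFB1 was not called, without shNC replicate 2, BMPR1A and SMAD3 were not, and without shIRF2BP2 replicate 2, none of these 3 was.

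**Figure D1:**
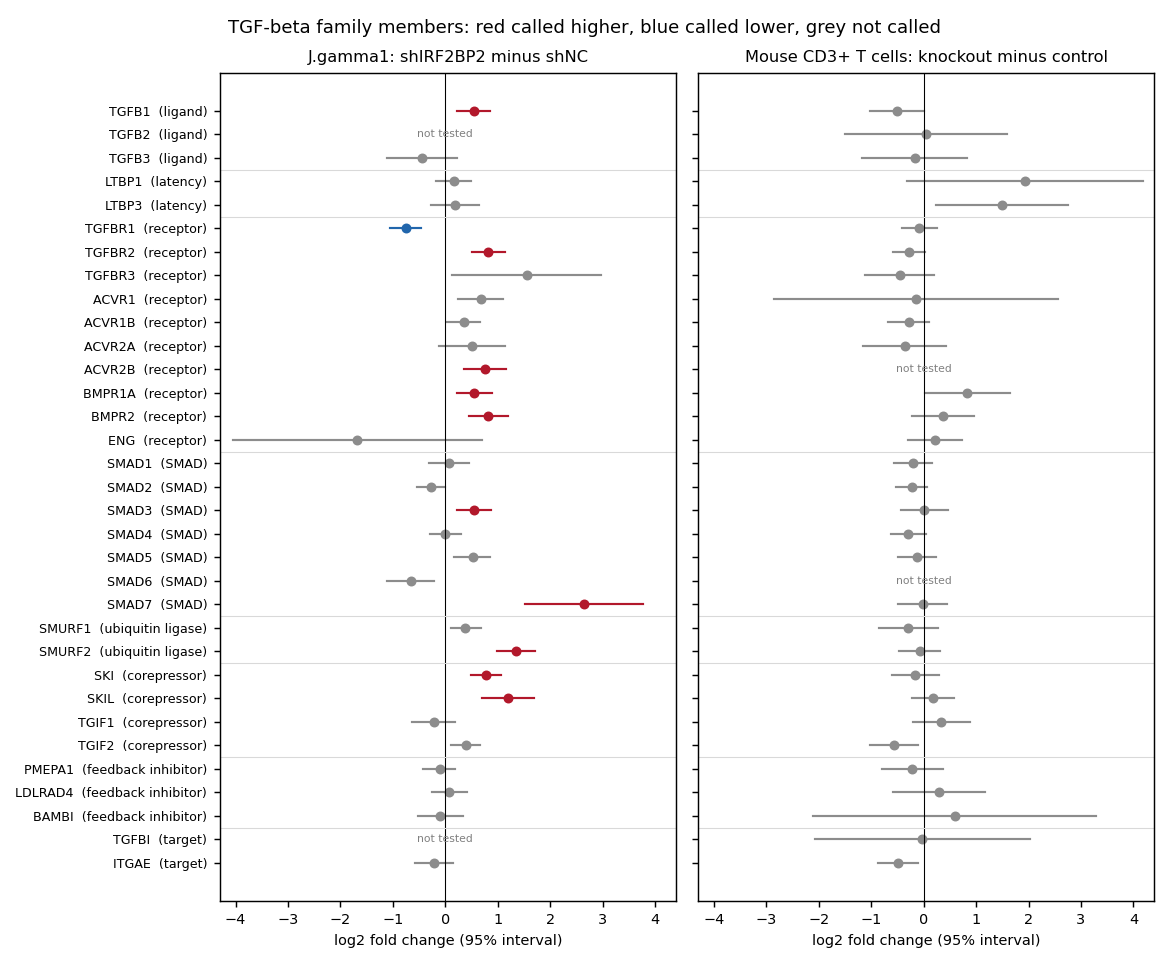
Log2 fold change (x axis) of each of the 33 genes (y axis, by role) in J.gamma1 cells, shIRF2BP2 over shNC (n = 2 and 2), and in mouse CD3+ T cells, Irf2bp2 KO over Wild type control (n = 2 and 3). Bars are 95% intervals of the edgeR fit. Red points are genes called higher, blue points genes called lower and grey points genes not called. In J.gamma1, 10 points are red and 1 is blue, and in mouse all points are grey.

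The sequences upstream of these genes were read because SMAD complexes bind DNA at short motifs, and several genes of the list, the inhibitory SMADs among them, are known to be transcribed in response to SMADs. The palindrome GTCTAGAC, a double SMAD-binding element, was found on either strand within 3000 bases upstream of the start in 2 of the 31 members tested, SMAD7 and SMAD6, beside 1.78% of 12738 genes tested that have a canonical transcript in GENCODE 44. The palindrome lay 1260 bases before the start of SMAD7 and 12 bases before that of SMAD6 (hg38 chr15:66702198-66702257, plus strand). The SMAD6 sequence around it is shown with the palindrome in capitals.

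SMAD6: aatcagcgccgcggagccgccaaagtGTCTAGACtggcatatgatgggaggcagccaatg

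Of the 250 bases before each start, those of SKIL, SMURF2 and BMPR2 are shown, as genes that repress the nuclear SMADs, degrade SMADs and receptors, and receive BMP ligands. Capitals mark GGCGCC, a GC-rich SMAD element, and CAGACA, which holds the core SMAD box CAGAC, each searched on both strands. CAGAC outside CAGACA was not searched and is left in lower case, as in SKIL (as its reverse complement, gtctg) and BMPR2. GGCGCC was present in 27.4% of all 12738 promoters, in 11 of the 31 members tested and in 5 of the 10 called higher. CAGACA was present in 9.13% of all promoters, in 2 of the 31 members and in 1 of the 10 called higher, which was BMPR2. Neither motif was found in this window of SMURF2. A match is a description of letters and was not read as a binding site.

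SKIL (hg38 chr3:170357465-170357714, plus strand): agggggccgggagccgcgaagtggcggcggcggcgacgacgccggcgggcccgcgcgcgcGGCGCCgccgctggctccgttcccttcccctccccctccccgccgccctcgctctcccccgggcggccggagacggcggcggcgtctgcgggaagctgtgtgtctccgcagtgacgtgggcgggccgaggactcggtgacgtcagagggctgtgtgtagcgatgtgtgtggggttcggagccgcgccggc
SMURF2 (hg38 chr17:64662308-64662557, minus strand): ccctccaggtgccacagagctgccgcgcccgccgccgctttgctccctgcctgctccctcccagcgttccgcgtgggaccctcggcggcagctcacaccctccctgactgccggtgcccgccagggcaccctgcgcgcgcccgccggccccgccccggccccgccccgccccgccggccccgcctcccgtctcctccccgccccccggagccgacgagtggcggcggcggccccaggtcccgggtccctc
BMPR2 (hg38 chr2:202376077-202376326, plus strand): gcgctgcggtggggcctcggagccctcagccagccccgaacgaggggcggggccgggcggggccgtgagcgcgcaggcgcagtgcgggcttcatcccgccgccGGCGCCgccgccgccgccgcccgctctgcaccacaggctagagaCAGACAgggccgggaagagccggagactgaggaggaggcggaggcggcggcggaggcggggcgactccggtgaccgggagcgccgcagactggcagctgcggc

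Among the ligands, TGFB1 (ENSG00000105329; hg38 chr19:41301587-41353922, minus strand), the TGF-beta made by most immune cells, had 60.5 and 71.2 CPM in shNC and 103 and 88.8 CPM in shIRF2BP2. Both knockdown libraries lay above both controls (log2 fold change 0.54, SE 0.135, edgeR adjusted p = 0.043). TGFB1 did not pass the threshold with upper-quartile scaling, and 6.59% of its exon bases overlap exons of a gene on the other strand. TGFB3 had 5.25 and 4.54 CPM in shNC and 2.95 and 4.21 CPM in shIRF2BP2 (log2 fold change -0.45, edgeR adjusted p = 0.36). The latency proteins LTBP1 and LTBP3, which tether inactive TGF-beta in the matrix, had log2 fold changes of 0.16 and 0.18 and were not called.

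The 2 receptors that bind TGF-beta itself moved in opposite directions. TGFBR1 (ENSG00000106799; hg38 chr9:99104038-99154192, plus strand), the type I kinase, had 77.9 and 69.9 CPM in shNC and 46.1 and 40.9 CPM in shIRF2BP2. TGFBR1 thus fell in both knockdown libraries, with no overlap (log2 fold change -0.76, SE 0.128, edgeR adjusted p = 0.011). TGFBR2 (ENSG00000163513; hg38 chr3:30606601-30694142, plus strand), the type II kinase that binds the ligand first, had 31.9 and 27.8 CPM in shNC and 50.1 and 54.7 CPM in shIRF2BP2. It rose in both knockdown libraries (log2 fold change 0.81, SE 0.135, edgeR adjusted p = 0.010). Per exon length, the ratio of TGFBR1 to TGFBR2 was 2.09 and 2.16 in shNC and 0.789 and 0.641 in shIRF2BP2, so that TGFBR1 was the higher of the pair in the controls and TGFBR2 in the knockdown. The co-receptor TGFBR3, which presents ligand to TGFBR2, was near the detection limit, with 8 and 6 counts in shNC and 26 and 17 in shIRF2BP2 (log2 fold change 1.55, edgeR adjusted p = 0.15). The endothelial co-receptor ENG had 17 and 24 counts in shNC and 0 and 13 in shIRF2BP2, and was not called (log2 fold change -1.68, edgeR adjusted p = 0.33).

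Of the activin and BMP receptors, 3 of 6 rose. ACVR2B (ENSG00000114739; hg38 chr3:38453890-38493142, plus strand), a type II activin receptor, had 146 and 103 CPM in shNC and 211 and 211 CPM in shIRF2BP2 (log2 fold change 0.76, SE 0.170, edgeR adjusted p = 0.030). BMPR2 (ENSG00000204217; hg38 chr2:202376327-202567751, plus strand), the type II BMP receptor, had 40.5 and 30.4 CPM in shNC and 64.3 and 60.6 CPM in shIRF2BP2 (log2 fold change 0.82, SE 0.159, edgeR adjusted p = 0.018). The controls of both genes differed more between themselves than the knockdown libraries did. BMPR1A (ENSG00000107779; hg38 chr10:86756596-86932825, plus strand), a type I BMP receptor, had 58.9 and 48.2 CPM in shNC and 85.1 and 72.2 CPM in shIRF2BP2. Its adjusted p was the nearest to the threshold (log2 fold change 0.55, SE 0.146, edgeR adjusted p = 0.049). ACVR1, ACVR1B and ACVR2A had log2 fold changes of 0.67, 0.35 and 0.51 with edgeR adjusted p of 0.056, 0.15 and 0.27. In each of these 3 genes both knockdown libraries lay above both controls, as in the 3 that were called. Groups that did not overlap were found in 58.3% of all genes tested.

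Among the 7 SMADs, SMAD3 and SMAD7 rose. SMAD7 (ENSG00000101665; hg38 chr18:48919853-48950965, minus strand), an inhibitory SMAD that recruits ubiquitin ligases to the TGF-beta receptor, had 1.04 and 0.419 CPM in shNC, from 27 and 13 counts, and 5.56 and 3.46 CPM in shIRF2BP2, from 162 and 102 counts. Its fold change was the largest of the members called, from the lowest level (log2 fold change 2.64, SE 0.488, edgeR adjusted p = 0.015). The value was 3.41 without shNC replicate 1 and 2.11 without shNC replicate 2. SMAD3 (ENSG00000166949; hg38 chr15:67063763-67195173, plus strand), a receptor SMAD for TGF-beta and activin, had 37.5 and 32.1 CPM in shNC and 47.5 and 54.0 CPM in shIRF2BP2 (log2 fold change 0.55, SE 0.141, edgeR adjusted p = 0.046). The other SMADs did not pass the test. SMAD6, the inhibitory SMAD that acts mainly on BMP signalling, had 22.6 and 16.9 CPM in shNC and 11.9 and 13.1 CPM in shIRF2BP2 (log2 fold change -0.66, edgeR adjusted p = 0.070), and was called lower by DESeq2. SMAD5, a receptor SMAD for BMP, had 106 and 81.1 CPM in shNC and 137 and 130 CPM in shIRF2BP2, with no overlap (log2 fold change 0.52, edgeR adjusted p = 0.064). SMAD2, SMAD4 and SMAD1 had log2 fold changes of -0.28, 0.00 and 0.07 with edgeR adjusted p of 0.17, 0.99 and 0.83. SMAD4, the partner of all receptor SMADs, had 115 and 102 CPM in shNC and 102 and 116 CPM in shIRF2BP2, the same range in both groups.

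**Figure D2:**
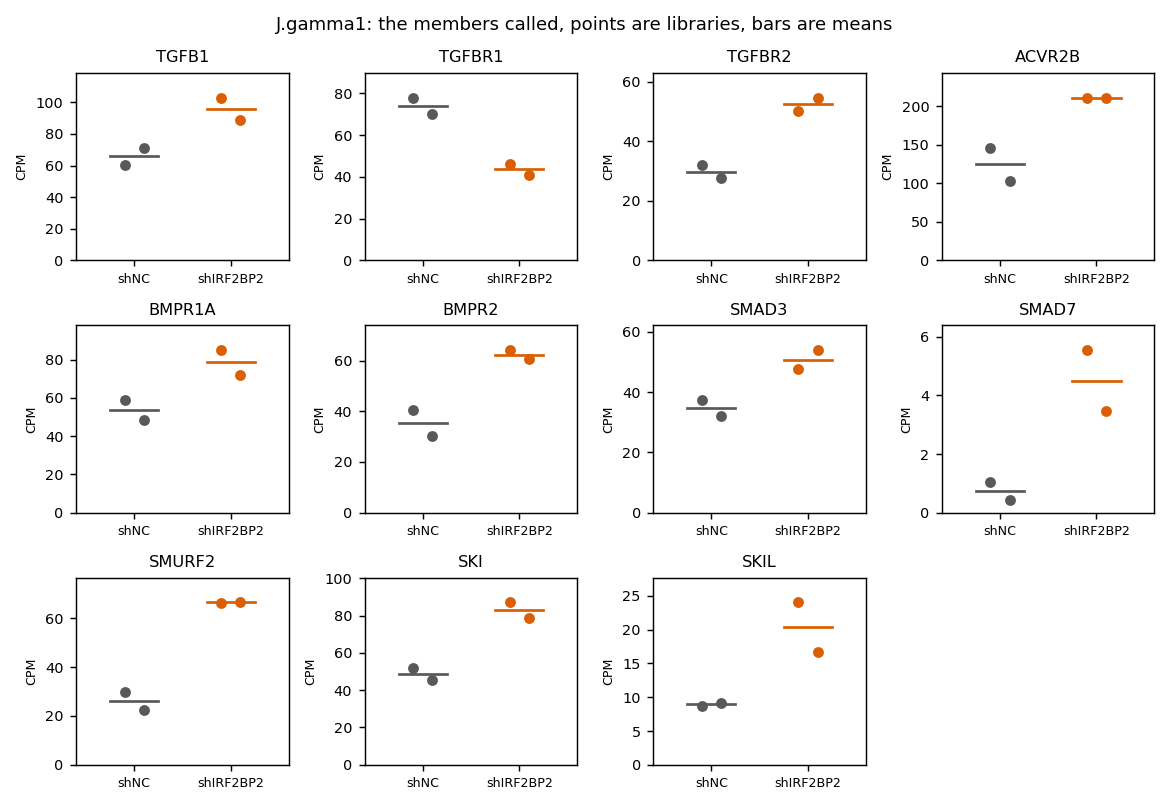
CPM (y axis, from 0) of the 11 genes called in J.gamma1 cells, in shNC (n = 2) and shIRF2BP2 (n = 2); points are libraries and lines are means. TGFBR1 is lower in both knockdown libraries, and the other 10 are higher in both than in either control.

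The ubiquitin ligase SMURF2 and both SKI proteins rose. SMURF2 (ENSG00000108854; hg38 chr17:64542282-64662307, minus strand), a ubiquitin ligase that works with SMAD7 to degrade receptors and SMADs, had 29.9 and 22.6 CPM in shNC and 66.4 and 66.6 CPM in shIRF2BP2, 2.54-fold higher (log2 fold change 1.34, SE 0.157, edgeR adjusted p = 0.0030). SMURF2 and TGFBR2 were the only 2 members called under every alternative run for single genes (test, scaling, filter, rows, block and each library left out). The related ligase SMURF1 had 60.7 and 53.2 CPM in shNC and 75.5 and 73.1 CPM in shIRF2BP2 (log2 fold change 0.38, edgeR adjusted p = 0.084), and 11.7% of its exon bases overlap exons on the other strand. SKI (ENSG00000157933; hg38 chr1:2227388-2310213, plus strand), which blocks SMAD-driven transcription, had 51.7 and 45.7 CPM in shNC and 87.3 and 78.9 CPM in shIRF2BP2 (log2 fold change 0.77, SE 0.126, edgeR adjusted p = 0.0099). Its relative SKIL (ENSG00000136603; hg38 chr3:170357342-170396835, plus strand), itself a TGF-beta-induced gene, had 8.77 and 9.09 CPM in shNC and 24.1 and 16.7 CPM in shIRF2BP2 (log2 fold change 1.19, SE 0.218, edgeR adjusted p = 0.014). Of the homeodomain corepressors, TGIF2 had a log2 fold change of 0.39 (edgeR adjusted p = 0.077) and TGIF1 one of -0.22 (edgeR adjusted p = 0.46).

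The feedback inhibitors and the targets of the list did not pass the test. PMEPA1, a TGF-beta-induced membrane protein that sequesters receptor SMADs, had 203 and 180 CPM in shNC and 188 and 165 CPM in shIRF2BP2 (log2 fold change -0.11, 95% interval -0.42 to 0.19). LDLRAD4, a relative of PMEPA1, had a log2 fold change of 0.07 (95% interval -0.26 to 0.41), and BAMBI, a decoy receptor without kinase activity, one of -0.10 (95% interval -0.53 to 0.33). The 3 intervals reached no further than -0.53 and 0.41. Those of SMAD7, SKIL and SMURF2, the members called higher at a log2 fold threshold of 1, began at 1.51, 0.69 and 0.98. These were picked by their values, and SMAD6, the other inhibitory SMAD, had a log2 fold change of -0.66. The response of these genes to TGF-beta was not tested. ITGAE, the CD103 integrin chain that TGF-beta induces in tissue-resident T cells, had 26.6 and 32.7 CPM in shNC and 24.3 and 26.7 CPM in shIRF2BP2 (log2 fold change -0.22, edgeR adjusted p = 0.40).

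The 3′ UTRs were also read for words that earlier results of these data had pointed to. Of the 1102 genes tested whose 3′ UTR holds AGGTCTA or GGTCTAA, 18.7% were called lower, against 8.96% of the 915 with GGTCTA alone and 4.34% of the 10630 with neither. TGFBR1, the member that fell, has none of these words in its 3′ UTR. Of the 5 members tested that hold GGTCTA, BMPR2 and SMAD2 hold it within a longer word, and ACVR2B, BMPR1A and LDLRAD4 without one. BMPR2, ACVR2B and BMPR1A were called higher, and SMAD2 and LDLRAD4, with log2 fold changes of -0.28 and 0.07, were not called. The site of BMPR2 is shown with GGTCTA in capitals as an example of the word in its place. Since the words were chosen from earlier results of these data, the shares of genes called lower are a description and give no support. The groups were not matched for 3′ UTR length, and the part of the words in the members' values was not tested.

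BMPR2: atgaccatttgaGGTCTAactgatcttttc

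Beyond the 33 genes, 69 other genes of the pathway were listed by role, of which 52 were tested in J.gamma1, 12 were called higher (23.1%, beside 5.46% of all genes) and 1 was called lower (1.92%, beside 5.01%), with a median log2 fold change of 0.25. The largest share was in latency and activation, where 4 of 8 tested were higher. ITGB1, an integrin chain that pairs with several alpha chains, one of which is ITGAV, had 238 and 226 CPM in shNC and 470 and 462 CPM in shIRF2BP2 (log2 fold change 1.01, edgeR adjusted p = 0.0031). FURIN, the protease that cleaves the TGF-beta precursor, had 30.1 and 30.2 CPM in shNC and 75.3 and 71.6 CPM in shIRF2BP2 (log2 fold change 1.28, edgeR adjusted p = 0.0015). ITGAV and NRROS, which release and anchor latent TGF-beta, were the other 2 of that group called higher. DAB2, an adaptor that links receptors to SMADs, was the gene called lower, with 9.89 and 7.45 CPM in shNC and 3.85 and 2.82 CPM in shIRF2BP2 (log2 fold change -1.38, edgeR adjusted p = 0.021). GDF11, NEO1, USP9X, RNF111, CREBBP, RUNX1, MAP2K4 and XIAP were also called higher, and are named after their values were seen. Without shIRF2BP2 replicate 1 or with every gene of at least 1 count, 5 pathway genes were called higher, and without shIRF2BP2 replicate 2, 7 were, and DAB2 then had an edgeR adjusted p of 0.063.

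A list of 35 genes that respond to TGF-beta or BMP in various cells had 26 tested, of which 7 were called higher (26.9%, beside 5.46% of all genes) and 0 lower by edgeR (beside 5.01%), with a median log2 fold change of 0.72. ID1, ID2 and ID3, inhibitors of E-protein transcription factors and classical BMP targets, rose together. ID1 had 26.6 and 24.0 CPM in shNC and 58.5 and 45.8 CPM in shIRF2BP2 (log2 fold change 1.04, edgeR adjusted p = 0.0071). ID2 had 1.93 and 2.58 CPM in shNC and 11.9 and 7.56 CPM in shIRF2BP2 (log2 fold change 2.10, edgeR adjusted p = 0.0068). ID3 had 30.5 and 34.6 CPM in shNC and 112 and 88.2 CPM in shIRF2BP2 (log2 fold change 1.62, edgeR adjusted p = 0.0016). The 3 ID genes and COL1A1, a collagen chain, had no overlap between the groups. The groups did not overlap in 19 of the 26 response genes tested, beside 58.3% of all genes. Of the 26, 16 had a log2 fold change above 0 and 10 one below 0, beside 50.6% of all genes above 0. Below 0 without overlap, and not called, were DACT1 (-1.93), SNAI1 (-0.85), GADD45B (-0.77), CDKN1A (-0.59) and ITGA1 (-0.55). DACT1 and SNAI1 stayed at or below 1.42 CPM. COL1A1 had 3.28 and 2.68 CPM in shNC and 7.59 and 6.78 CPM in shIRF2BP2 (log2 fold change 1.27, edgeR adjusted p = 0.021, and 0.089 without shIRF2BP2 replicate 1). KLF10, an early TGF-beta-induced factor, IL2RA and PRDM1 were also called higher, and many of these genes answer to other signals too. Genes of the NK cell list moved in the same comparison: 3 of 3 tested of 5 listed, NKG7, PRF1 and EOMES, were called higher. NCR1 had 0 counts in every library, and KLRB1 had 0 in both shNC libraries and 3 and 7 in shIRF2BP2. The list summed to 25.4 to 26.8 CPM in shNC and 139 to 147 CPM in shIRF2BP2. Most of that rise was EOMES, with 11.8 and 11.3 CPM in shNC and 112 and 119 CPM in shIRF2BP2. B cell markers summed to 53.6 to 68.2 CPM in shNC and 19.0 to 21.1 CPM in shIRF2BP2, with 1 of 3 tested called lower. That gene was CD79A (log2 fold change -2.07), while CD79B and EBF1 had log2 fold changes of -0.11 and -0.01. Plasma cell markers summed to 133 to 149 CPM and 82.7 to 84.5 CPM, with 1 of 3 tested called higher and 1 lower. J.gamma1 is 1 cell line, so these lists describe genes here and not shares of cell types. Their part in the pathway values was not tested.

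**Figure D3:**
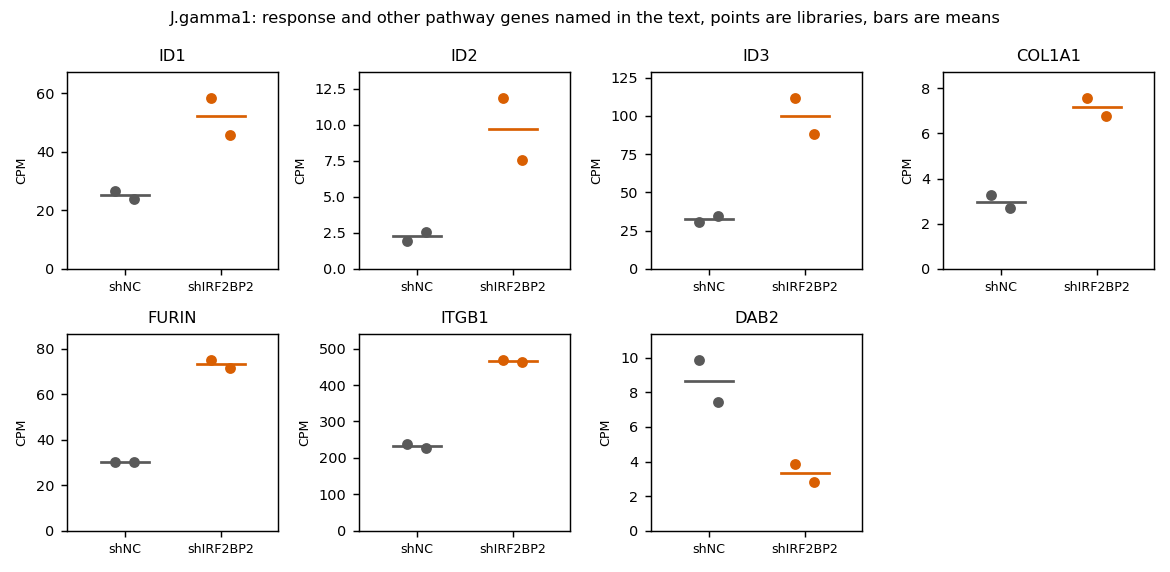
CPM (y axis, from 0) of response and other pathway genes in J.gamma1 shNC (n = 2) and shIRF2BP2 (n = 2) libraries; points are libraries and lines are means. ID1, ID2, ID3, COL1A1, FURIN and ITGB1 are higher in both knockdown libraries and DAB2 is lower in both.

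In mouse CD3+ T cells, none of the 31 members tested was called, by edgeR or by DESeq2, beside 2.77% of 15361 genes, of which 2.59% were higher and 0.182% lower. At an unadjusted p under 0.05 there were 4, Ltbp3, Bmpr1a, Tgif2 and Itgae, beside 16.9% of all genes. Of the 31, 11 had a log2 fold change above 0, beside 45.5% of all genes, and the median was -0.13 over the members and -0.04 over all genes. In 11 members the groups did not overlap, beside 37% of all genes. Acvr2b and Smad6, with at most 12 counts in any library, were not tested. A total of 25 members had a log2 fold change under 0.5 in size, and 18 had a 95% interval within 1 in size, 17 of them among the 22 with at least 10 CPM in both groups.

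The mouse receptors ranged from Tgfbr2, the highest, to Acvr2b, which was too low to test. Tgfbr2 had 364, 406 and 380 CPM in the controls and 330 and 304 CPM in the knockout, both below the lowest control (log2 fold change -0.27, 95% interval -0.58 to 0.03, edgeR adjusted p = 0.35). Tgfbr1 had 53.3, 50.3 and 61.5 CPM in the controls and 54.3 and 50.0 CPM in the knockout (log2 fold change -0.08, 95% interval -0.41 to 0.25). The ratio of Tgfbr1 to Tgfbr2 per exon length was 0.155 to 0.203 in the controls and 0.206 in each knockout library. Tgfbr3 ranged from 43.2 to 83.9 CPM over the 5 libraries, and Acvr1b from 54.9 to 81.2 CPM. The BMP receptors were low: Bmpr1a had 2.74, 1.72 and 2.52 CPM in the controls and 4.47 and 3.82 CPM in the knockout (log2 fold change 0.83, 95% interval 0.03 to 1.64, edgeR adjusted p = 0.28), and Bmpr2 ranged from 7.19 to 13.1 CPM. Acvr1, Acvr2a and Eng had log2 fold changes of -0.14, -0.36 and 0.22.

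Tgfb1 had 121, 194 and 145 CPM in the controls and 101 and 114 CPM in the knockout (log2 fold change -0.51, 95% interval -1.02 to 0.00, edgeR adjusted p = 0.30). Control replicate 2 was the highest library, and both knockout libraries lay below every control. Tgfb2, Tgfb3, Ltbp1 and Ltbp3 stayed at or below 2.46 CPM in every library. Smad4 had 133, 116 and 147 CPM in the controls and 110 and 105 CPM in the knockout (log2 fold change -0.29, 95% interval -0.63 to 0.04, edgeR adjusted p = 0.37). Smad1, Smad2, Smad3 and Smad5 had log2 fold changes of -0.21, -0.23, 0.01 and -0.13. Smad7 had 118, 116 and 162 CPM in the controls and 116 and 144 CPM in the knockout, and the groups overlapped (log2 fold change -0.02, 95% interval -0.48 to 0.44).

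Smurf2, Ski and Skil, whose human counterparts rose in J.gamma1 cells, were not called in the knockout T cells. Smurf2 had 82.4, 88.4 and 108 CPM in the controls and 95.8 and 80.5 CPM in the knockout (log2 fold change -0.07, 95% interval -0.46 to 0.31), and Smurf1 had a log2 fold change of -0.29. Ski ranged from 179 to 259 CPM in the controls and from 180 to 196 CPM in the knockout (log2 fold change -0.16, 95% interval -0.60 to 0.29). Skil had 120, 88.9 and 120 CPM in the controls and 117 and 130 CPM in the knockout (log2 fold change 0.17, 95% interval -0.23 to 0.57). These groups overlapped in all 3 genes. Tgif1, Pmepa1, Ldlrad4 and Bambi had log2 fold changes of 0.34, -0.22, 0.30 and 0.59, and Bambi was at 0.136 to 2.65 CPM. Of the exon bases of Ldlrad4, 52.1% overlap exons on the other strand.

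Itgae and Tgif2 came nearest to a call among the well-measured genes. Itgae had 47.5, 40.0 and 51.9 CPM in the controls and 34.9 and 31.1 CPM in the knockout, with no overlap (log2 fold change -0.49, 95% interval -0.87 to -0.11, edgeR adjusted p = 0.20). Tgif2 had 21.4, 27.5 and 25.1 CPM in the controls and 18.4 and 15.0 CPM in the knockout (log2 fold change -0.56, edgeR adjusted p = 0.21), and 61.6% of its exon bases overlap exons on the other strand, so that reads of the 2 genes cannot be told apart if strand was not used. Tgfbi, an extracellular matrix protein made by macrophages, had 7.29, 26.1 and 3.03 CPM in the controls and 17.9 and 6.19 CPM in the knockout. The summed level of the myeloid markers was 35.2 to 348 CPM in the controls and 66.2 to 110 CPM in the knockout, and its part in the spread of Tgfbi was not tested.

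**Figure D4:**
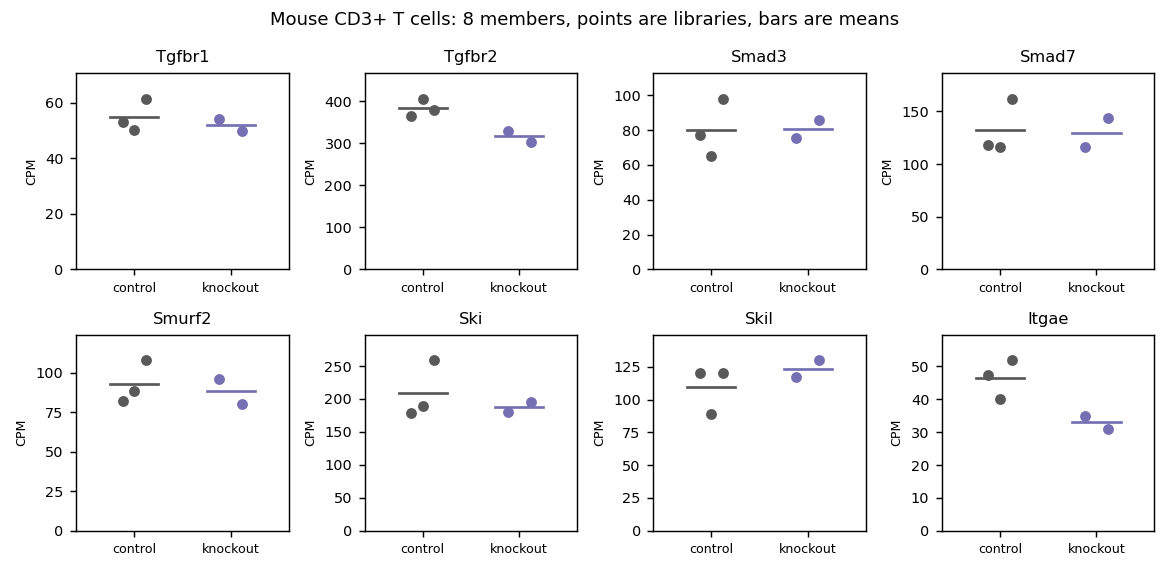
CPM (y axis, from 0) of 8 of the genes in mouse splenic CD3+ T cells, Wild type control (n = 3) and Irf2bp2 KO (n = 2); points are libraries and lines are means. The groups overlap in Tgfbr1, Smad3, Smad7, Smurf2, Ski and Skil, and both knockout libraries are below every control in Tgfbr2 and Itgae.

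Cell type markers also moved in the mouse comparison. The summed level of the erythroid markers was 376 to 1440 CPM in the controls and 2890 to 4050 CPM in the knockout, with 3 of 7 called higher, and that of the cycling genes was 170 to 293 CPM and 932 to 1010 CPM, with 4 of 6 called higher. The T cell markers summed to 4540 to 5200 CPM in the controls and 3390 to 3640 CPM in the knockout, with 0 of 10 called by edgeR and a median log2 fold change of -0.46. B cell markers were at 26.3 to 221 CPM in the controls and 24.7 to 79.7 CPM in the knockout, and plasma cell markers at 413 to 1150 CPM and 1120 to 1480 CPM. In bulk samples, fewer cells of a type and less RNA per cell cannot be told apart, and the part of these markers in the members' values was not tested.

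Of the other 69 pathway genes, 54 were tested in mouse and 1 was called higher (1.85%, beside 2.59% of all genes), a share near that of all genes. Itgb8, an integrin chain that activates latent TGF-beta, had 3.80, 3.22 and 3.91 CPM in the controls and 13.6 and 12.4 CPM in the knockout (log2 fold change 1.83, edgeR adjusted p = 0.015). Itgb8 did not pass without control replicate 1 or without either knockout replicate, which left 0 pathway genes called higher. Of the response genes, 27 were tested, 2 were called higher (7.41%, beside 2.59% of all genes) and 1 lower (3.7%, beside 0.182%), and DESeq2 called 5 higher. Bhlhe40, a transcription factor induced on T cell activation, had 10.8, 7.73 and 13.6 CPM in the controls and 26.3 and 53.1 CPM in the knockout (log2 fold change 1.90, and 1.30 without knockout replicate 2, edgeR adjusted p = 0.045 and 0.31). Prdm1, which encodes Blimp-1, had 14.2, 8.84 and 9.91 CPM in the controls and 29.9 and 28.2 CPM in the knockout (log2 fold change 1.40, edgeR adjusted p = 0.034), and it also stands on the plasma cell list. Cxcr6, a chemokine receptor of tissue-resident T cells, was the gene called lower, named after its values were seen. Without control replicate 1 or either knockout replicate, 0 response genes were called higher and 0 lower, and Prdm1 did not pass without control replicate 3 either (edgeR adjusted p = 0.057).

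Set side by side, 10 of the 11 members called in J.gamma1 cells were tested in mouse, and for 8 of them the 95% interval in mouse did not hold the J.gamma1 value. That count leaves out the error of the J.gamma1 value and covers members picked by their J.gamma1 calls. For SMAD3, the intervals overlapped (0.22 to 0.87 in J.gamma1 and -0.44 to 0.46 in mouse). Among members that were not called, LTBP3, TGFBR3, ACVR1B, ACVR2A, ENG, SMAD5, SMURF1, TGIF1 and TGIF2 also had J.gamma1 values outside the mouse interval. The share over all genes was not computed, and the count is not read as a trait of the called genes. For TGFBR1 the log2 fold changes were -0.76 in J.gamma1 and -0.08 in mouse, for TGFBR2 0.81 and -0.27, for SMAD7 2.64 and -0.02 and for SMURF2 1.34 and -0.07. For BMPR2, at 0.82 and 0.37, and BMPR1A, at 0.55 and 0.83, the mouse interval held the J.gamma1 value. Of the 9 called higher in J.gamma1, 4 were above 0 in mouse. The 2 designs differ in species, cell state and extent of loss, were fitted apart, and the difference between them was not tested.

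The levels in the controls also differed between the systems, as values of tables that were normalized separately. In shNC, 14 of the 33 genes had at least 5 RPKM and 9 had under 1. PMEPA1 was the highest at 33.3 RPKM, followed by TGFB1 at 20.2 RPKM, and SMAD5 at 10.3, TGIF2 at 10.1 and TGFBR1 at 9.25 RPKM, which did not differ beyond the spread between libraries (8.97 to 11.7 for SMAD5 and 8.75 to 9.75 for TGFBR1). Per exon length, TGFBR1 was the highest receptor and SMAD5 the highest SMAD. The range of ACVR2B (6.59 to 9.31 RPKM) overlapped that of TGFBR1. Before division by length, ACVR2B (125 CPM, 15705 exon bases) exceeded TGFBR1 (73.9 CPM, 7990 exon bases). The order of the SMADs depends on the length used, since SMAD2 (187 CPM, 36426 exon bases) and SMAD4 (109 CPM, 19606 exon bases) exceeded SMAD5 (93.4 CPM, 9040 exon bases) before division by length. In the mouse controls, 17 genes had at least 5 RPKM and 10 had under 1. Tgfbr2 was the highest at 46.9 RPKM (44.5 to 49.6), followed by Ski at 37.6 (32.2 to 46.6), Smad4 at 35.6 (31.2 to 39.6), Tgfb1 at 30.4 (24.0 to 38.5) and Smad7 at 29.2 RPKM (25.7 to 35.8). The ranges of neighbours in this order overlapped, and in control replicate 3 Ski, at 46.6 RPKM, was above Tgfbr2, at 46.4 RPKM. SMAD7 was 0.185 RPKM in shNC and 29.2 RPKM in the mouse controls, TGFBR3 was 0.0293 and 10.2 RPKM, and TGFBR2 4.35 and 46.9 RPKM. In the other direction, PMEPA1 was 33.3 and 2.83 RPKM, ACVR2B 7.95 and 0.0141 RPKM and SMAD6 2.31 and 0.0173 RPKM.

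**Figure D5:**
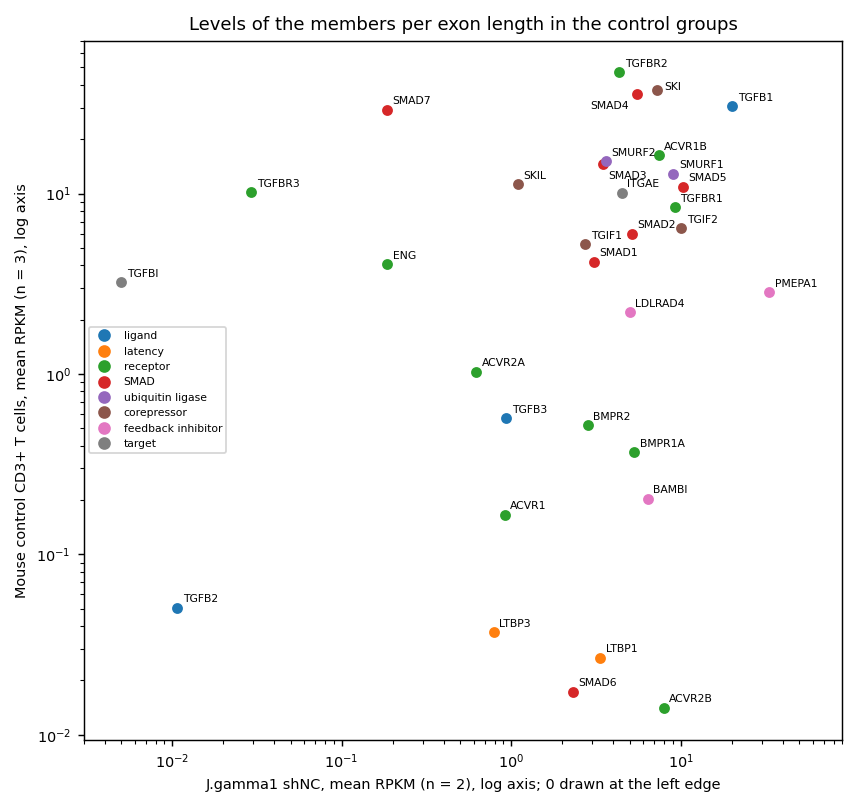
Mean RPKM of each gene in J.gamma1 shNC (n = 2, x axis) and in mouse Wild type control CD3+ T cells (n = 3, y axis), both axes logarithmic, coloured by role. SMAD7 and TGFBR3 lie at the upper left, ACVR2B and SMAD6 at the lower right, and TGFB1, SMAD5 and TGFBR1 are high in both.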

How the data were processed

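RNA-seq was analysed in 4 J.gamma1 and 5 mouse libraries. The authors aligned reads with HISAT2 2.2.0 to hg38 or mm10 and estimated abundance with StringTie, per the labels and methods. The authors deposited whole-number counts per gene, without normalization; how they were derived from StringTie and whether strand was used are not given in the sources used here. Rows were restricted to annotated identifiers (GENCODE 44, 56105 of 64252 rows; GENCODE M21, 42548 of 43432 rows). Low counts were removed with filterByExpr, libraries were scaled by TMM, and each table was tested in edgeR 4.0.16 (glmQLFTest, R 4.3.3) with Benjamini-Hochberg adjustment over all 15819 or 15361 genes. Intervals are 95%, from the fit. RPKM uses union exon length. Replicates differed beyond counting noise (chi-square per gene at least 18.2). A count of 0 was read against 3 counts (0.0775 to 0.189 CPM), which covers counting error only.

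Values of every library are given for members called, IRF2BP2 and the highest ligand, receptor and SMAD per table; other pathway and response genes are named where called with a log2 fold change no smaller than 1 in size and a mean of at least 5 CPM. Some further members are given by value so that each is accounted for. The members and lists were chosen with earlier results of these data known. The alternatives tried were DESeq2 1.42.0, scaling by RLE or by the upper quartile, filters of at least 1 count in any or 10 in every library, all rows, a block for the replicate number, leaving out each library, and other fold thresholds. The scripts were tested on simulated data. Motifs and 3′ UTRs (canonical transcripts, hg38) were searched in Python 3.11.15.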

Additional observations from a re-analysis of the deposited data

How the results depend on the processing

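Counts of J.gamma1 members called higher lay between 3 and 12, beside 10 as reported. With at least 1 count in any library 3 members, 5 other pathway genes and 4 response genes were called higher and 0 pathway genes lower; with a log2 fold change of at least 1, 3 and 2 were higher and 0 members lower. Lower calls were 2 for members with DESeq2, and 2 for pathway genes with upper-quartile scaling, with 10 counts in every library and with adjusted p alone. Leaving out 1 library gave 3 to 11 members higher and 1 to 2 lower, 5 to 18 pathway genes higher and 0 to 3 lower, and 5 to 8 response genes higher and 0 to 1 lower. The single lower call without shIRF2BP2 replicate 2 was ENG, in place of TGFBR1. In mouse, members stayed at 0 calls under every alternative. DESeq2 called 4 mouse pathway genes higher and 1 lower and 5 response genes higher, a log2 fold change of at least 1 left 0 response genes lower, and leaving out 1 library gave 0 to 1 pathway genes higher, and 0 to 3 response genes higher and 0 to 2 lower. Each cause was not tested, beyond the fewer samples or larger number of genes in the fit.

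Replicate numbers were shared by shNC and shIRF2BP2, but nothing says that a number marks a shared culture or litter (correlation of same-numbered deviations 0.225 in J.gamma1, 0.151 and -0.161 in mouse). With the replicate number as a block, 12 members were called higher and 2 lower in J.gamma1, 1 response gene was called lower, and in mouse 1 response gene was called higher and 2 lower. The block turned the mouse values of Tgfb3 to 0.07, Tgfbr1 to 0.01, Smad7 to 0.15, Smurf2 to 0.04 and Ski to 0.03.

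No member called in J.gamma1 changed direction. Members near 0 did. J.gamma1 SMAD4 was 0.00 with RLE scaling, -0.05 with upper-quartile scaling, -0.03 with at least 1 count and -0.01 with 10 counts in every library. Mouse Smad7 was 0.01 with DESeq2, RLE scaling, upper-quartile scaling and at least 1 count, 0.05 with 10 counts in every library and 0.00 with all rows, and Tgfbi was 0.00 with DESeq2 and 0.04 with 10 counts in every library. Leaving out 1 library gave ranges of -0.11 to 0.26 for SMAD1, -0.10 to 0.09 for SMAD4, -0.10 to 0.26 for LDLRAD4 and -0.27 to 0.03 for BAMBI. In mouse the ranges were -0.11 to 0.41 for Tgfb2, -0.36 to 0.05 for Tgfb3, -0.14 to 0.02 for Tgfbr1, -0.65 to 1.04 for Acvr1, -0.08 to 0.19 for Smad3, -0.18 to 0.17 for Smad7, -0.20 to 0.06 for Smurf2, -0.22 to 0.04 for Ski, -1.56 to 1.47 for Bambi and -0.98 to 1.23 for Tgfbi.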
